A study of Mus musculus with 40 samples.

Results

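The comparison described here is between high-fat diet (HFD) and normal chow diet (NCD) in cold-exposed mice, for acetylation of histone H3 at lysine 27 (H3K27ac) in interscapular brown adipose tissue (iBAT). All mice were wild type C57BL/6N and 20 weeks old, and all had been at 4 °C for 24 h before the tissue was taken. Mice 4 and 5 (cold_ncd) had eaten chow (Ssniff V1554) up to 8 weeks of age and NCD after that. The methods do not name the product they were fed from then on. Mice 10 and 11 (cold_hfd) had the same chow up to 8 weeks of age and were then moved for 12 weeks to an HFD, Ssniff D12492 (I) mod. Warm mice of the same age, 1 and 2 on NCD and 7 and 8 on HFD, were used only to look up regions found in the cold mice. Each list of H3K27ac peaks carries the number of 1 mouse, although the wording of the methods leaves room for material of 2 mice having been combined.

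The peaks of the 4 cold mice were merged wherever they overlapped by at least 1 bp, which gave 44729 regions of the 47548 found when all 8 mice were merged. A region was NCD-only when both NCD mice and neither HFD mouse had a peak in it, and HFD-only in the reverse case. This gave 1374 NCD-only regions (3.07% of all regions) and 184 HFD-only regions (0.411%), 1558 members in all. These are descriptions of presence and absence, because an exact test of 2 against 2 mice cannot give a p below 0.333. A region within 1000 bp of a transcription start site is called promoter, and any other region distal.

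H3K27ac is laid down by the acetyltransferases CBP and p300 at active promoters and at active enhancers, the distal elements that raise transcription of a gene from a distance. Trimethylation of lysine 4 of histone H3 (H3K4me3) marks promoters, monomethylation of the same residue (H3K4me1) marks enhancers, and trimethylation of lysine 27 (H3K27me3) marks genes silenced by Polycomb. In brown adipose tissue, cold releases noradrenaline, which drives lipolysis and heat production through the uncoupling protein UCP1. The tissue also makes fatty acids de novo, and its lipid droplets enlarge on a high-fat diet.

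The reference sequence under the strongest point of a few members is shown so that their base composition and motif letters can be read beside the values below. Each window holds 201 bases, 100 on each side of the summit, on the plus strand of GRCm38. Capitals mark matches to the letters of any of the motifs searched, on either strand. Of the windows shown, Lep holds CCAAT letters and Col18a1 holds C/EBP and CCAAT letters, and the others hold none. The first 4 windows belong to NCD-only regions, namely the promoter regions of Lep (chr6:29060989-29061189), Gm15551 (chr3:126668589-126668789) and Fbxo46 (chr7:19119935-19120135) and a distal region in Col18a1 (chr10:77098403-77098603). The last 3 belong to HFD-only regions, namely the promoter regions of Elovl3 (chr19:46131168-46131368) and Sgk2 (chr2:162987608-162987808) and a distal region in Arhgap23 (chr11:97427796-97427996).
Lep: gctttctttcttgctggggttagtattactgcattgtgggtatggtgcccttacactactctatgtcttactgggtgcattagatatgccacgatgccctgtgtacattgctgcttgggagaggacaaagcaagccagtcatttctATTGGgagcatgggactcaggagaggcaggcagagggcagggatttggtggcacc
Gm15551: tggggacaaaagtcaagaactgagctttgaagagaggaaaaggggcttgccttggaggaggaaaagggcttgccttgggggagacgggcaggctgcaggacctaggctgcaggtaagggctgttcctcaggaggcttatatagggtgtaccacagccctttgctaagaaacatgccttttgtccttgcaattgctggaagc
Fbxo46: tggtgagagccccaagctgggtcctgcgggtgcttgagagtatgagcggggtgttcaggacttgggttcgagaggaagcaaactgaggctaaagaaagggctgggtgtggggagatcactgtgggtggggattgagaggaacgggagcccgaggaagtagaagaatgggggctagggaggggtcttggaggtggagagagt
Col18a1: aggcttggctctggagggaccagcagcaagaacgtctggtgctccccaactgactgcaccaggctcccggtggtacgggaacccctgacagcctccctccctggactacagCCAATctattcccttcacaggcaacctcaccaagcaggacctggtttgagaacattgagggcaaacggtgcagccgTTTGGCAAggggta
Elovl3: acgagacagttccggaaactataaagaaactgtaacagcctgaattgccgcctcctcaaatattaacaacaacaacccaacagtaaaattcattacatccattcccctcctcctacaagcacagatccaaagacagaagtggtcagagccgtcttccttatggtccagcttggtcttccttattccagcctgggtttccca
Sgk2: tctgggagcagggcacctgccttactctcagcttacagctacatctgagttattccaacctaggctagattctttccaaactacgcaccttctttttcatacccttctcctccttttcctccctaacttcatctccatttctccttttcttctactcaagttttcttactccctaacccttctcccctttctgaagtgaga
Arhgap23: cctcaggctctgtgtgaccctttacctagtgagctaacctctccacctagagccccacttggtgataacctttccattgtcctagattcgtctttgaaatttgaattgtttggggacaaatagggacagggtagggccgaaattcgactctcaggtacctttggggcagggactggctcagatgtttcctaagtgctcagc

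The 4 lists were not alike. The NCD mice had 30544 (mouse 4) and 30495 (mouse 5) peaks, whereas mouse 10 had 14511 peaks and mouse 11 had 40604. The genome-wide background that the peak caller used, recovered from the fold enrichments and p-values, was 1.07, 0.965, 0.462 and 2.04 fragments per position in mice 4, 5, 10 and 11. The lowest enrichment over that background that was called was accordingly 5.66, 6.69, 8.91 and 3.92. Both HFD lists thus lay outside the range of the NCD lists, on opposite sides, and absence of a peak in mouse 10 means that none was detectable at its depth. Of the 14 brown adipocyte markers, 12, 13, 13 and 14 had a promoter peak in mice 4, 5, 10 and 11, so the markers of the labelled tissue were present in every list. Of 23 macrophage and inflammation markers 3, 2, 2 and 5 had a promoter peak, with Adgre1, Csf1r and Ptprc among those without any, and of 12 lymphocyte markers none had. Of 16 skeletal muscle markers 3, 3, 1 and 5 had a promoter peak, with Acta1, Ckm and Myh4 among those without any. The list with the most peaks, that of mouse 11, had the most macrophage and inflammation markers and the most skeletal muscle markers. The part of these cell types in the results was not tested. In bulk tissue, fewer cells of a type and a lower level in each cell cannot be told apart. Of 12 endothelial markers, 11, 11, 10 and 11 had a promoter peak.

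Most regions were neither NCD-only nor HFD-only. Regions with a peak in mouse 11 alone numbered 10388, those in all 4 mice 9296, and those in mice 4, 5 and 11 but not 10 numbered 8042. Regions present in exactly 2 mice with 1 of each diet numbered 8087, against 1558 present in 2 mice of the same diet. Most of the former involved mouse 11, the longest list, with 3649 in mice 4 and 11 and 4408 in mice 5 and 11. Mouse 10 had few peaks of its own, with 29 regions found in that list alone. The Jaccard index, the bases shared by 2 lists as a fraction of the bases covered by either, was 0.516 between the NCD mice and 0.263 between the HFD mice. Between diets it was 0.332 for mice 4 and 10, 0.307 for mice 5 and 10, 0.515 for mice 4 and 11, and 0.531 for mice 5 and 11. The mean index was 0.390 within diets, not above the 0.421 ± 0.118 (SD over 4 pairs) between diets. The index cannot exceed the bases covered by the smaller list as a fraction of those covered by the larger. Of the 4 cold lists, that of mouse 10 covered the fewest bases and that of mouse 11 the most. The HFD pair thus had the lowest ceiling. The means therefore cannot tell whether mice of the same diet were more alike.

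**Figure D1:**
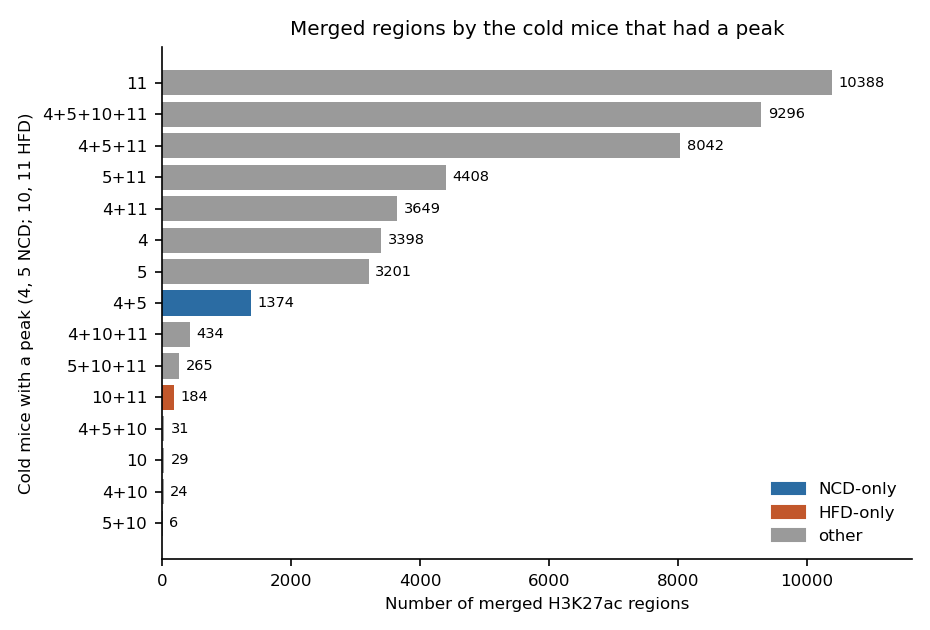
Number of merged H3K27ac regions (x axis) for each combination of cold mice that had a peak in them (y axis; mice 4 and 5 were NCD, mice 10 and 11 HFD). The largest set, 10388 regions, belonged to mouse 11 alone, while NCD-only regions (blue) numbered 1374 and HFD-only regions (orange) 184.

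The unequal lengths of the lists were addressed by taking the 14511 peaks with the highest −log10 p from each list. Merging these gave 20550 regions, of which 848 were NCD-only (4.13%) and 494 HFD-only (2.40%). Only 109 of the 1374 NCD-only regions and 82 of the 184 HFD-only regions kept their class. All of the 1265 and 102 that did not keep it lost a supporting peak that ranked too low. In turn, 739 of the 848 and 412 of the 494 (87.1% and 83.4%) had a lower-ranked peak of the other diet in the full lists. The 109 NCD-only and 82 HFD-only regions that hold in both versions are called kept below, and most named regions were taken from among them. Since the list of mouse 10 was not shortened, an HFD-only region could lose support in mouse 11 alone and an NCD-only region in either mouse, so the shares kept are not comparable between the classes.

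Where each list is ranked by −log10 p from 0 (weakest) to 100 (strongest), the median NCD-only promoter region stood at 38.0 in mouse 4 and 38.8 in mouse 5. NCD-only distal regions had medians of 38.0 and 30.3. HFD-only promoter regions had medians of 25.9 in mouse 10 and 67.1 in mouse 11, and HFD-only distal regions 21.05 and 60.3. Over all promoter regions the medians were 64.7, 67.0, 64.0 and 69.9 in mice 4, 5, 10 and 11, and over all distal regions 47.5, 42.7, 42.6 and 43.2, so the members stood below them except for HFD-only distal regions in mouse 11. Promoter regions present in all 4 mice had medians between 65.3 and 89.5 in the 4 lists. The median width was 498 bp for NCD-only promoter and 504 bp for NCD-only distal regions, 660.5 bp and 641 bp for the HFD-only ones, and 1827.5 bp and 1931 bp for regions in all 4 mice. Over all regions it was 866 bp at promoters and 520 bp at distal sites, close to the NCD-only and below the HFD-only distal value. Of the NCD-only regions 9.10% had a −log10 q below 2 in mouse 4, and of the HFD-only regions 17.4% had in mouse 10, which is the edge of the deposited lists.

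**Figure D2:**
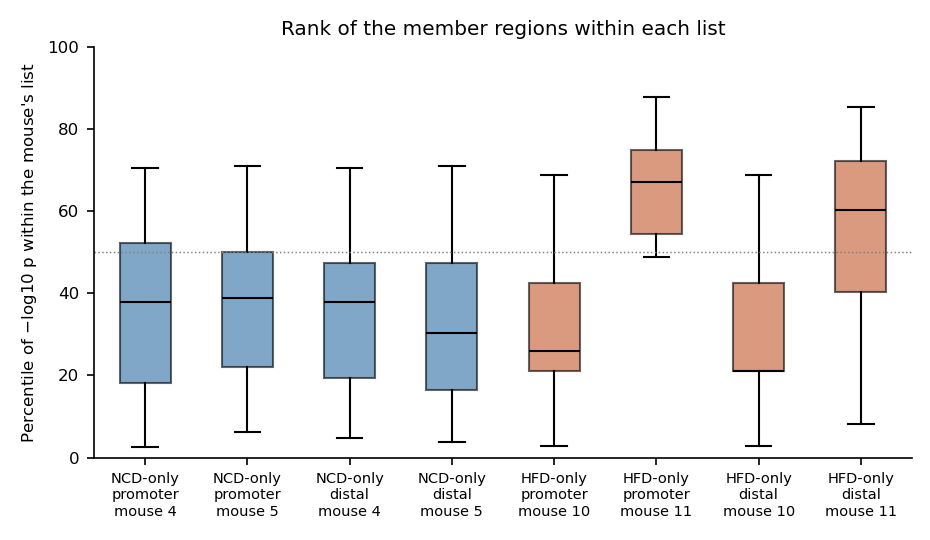
Percentile of −log10 p within the mouse's own list (y axis, 100 is the strongest peak) for NCD-only regions in mice 4 and 5 (blue) and HFD-only regions in mice 10 and 11 (orange), promoter and distal apart. Boxes span the quartiles with the median as a line and whiskers reach the 5th and 95th percentiles; only in mouse 11 did the medians, 67.1 and 60.3, lie above 50.

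Many members lay beside a peak of the other diet. For NCD-only regions the nearest peak of an HFD mouse was at a median distance of 3635.5 bp, and for 488 of them (35.5%) it was within 1000 bp. For HFD-only regions the nearest peak of an NCD mouse was at a median of 5491.5 bp, and for 42 (22.8%) it was within 1000 bp. Among promoter regions the shares were 38.1% of the 231 NCD-only and 12.5% of the 24 HFD-only regions. Such distances were not measured for regions of other kinds, and each class was measured against the lists of the other diet. The shares therefore do not tell whether members differ from other regions, or the classes from each other.

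**Figure D3:**
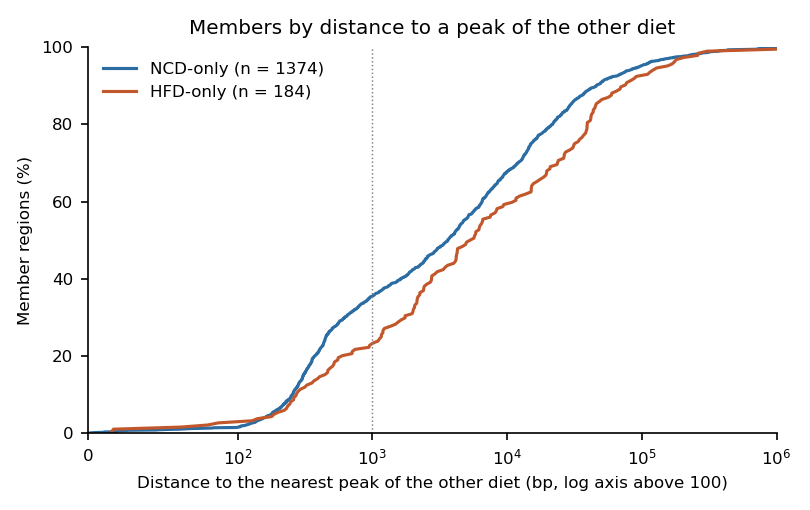
Cumulative share of member regions (y axis, percent) against the distance to the nearest H3K27ac peak of a mouse of the other diet (x axis, bp, logarithmic above 100). At 1000 bp (dotted line) the NCD-only curve (blue) stood at 35.5% and the HFD-only curve (orange) at 22.8%.

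Of NCD-only regions 231 (16.8%, 95% Wilson interval 14.9 to 18.9) were promoters, and of HFD-only regions 24 (13.0%, 8.92 to 18.7). The share was 31.2% over all regions and 46.5% over regions in all 4 mice. The lower share of the members depended in part on which mice are included. For NCD-only regions it was 26.5%, 12.6%, 16.7% and 34.2% without mouse 4, 5, 10 and 11. For HFD-only regions it was 10.1%, 41.3%, 14.4% and 11.6% in the same order. The share over all regions was not counted for each set of 3 mice. Put the other way, 1.66% of promoter regions and 3.71% of distal regions were NCD-only, and 0.172% and 0.52% were HFD-only. Of the distal members 62.6% (NCD-only) and 55.0% (HFD-only) had their summit in an intron, against 63.4% of all distal regions. The nearest start site of distal members was at a median of 15719 bp (NCD-only) and 16782 bp (HFD-only), close to the 14679 bp of all distal regions. The intervals cover counting error only, since regions of a mouse share its library.

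The other marks of the same cold mice were looked up at the members. H3K4me3 covered 78.4%, 79.7%, 70.6% and 79.2% of NCD-only promoter regions in mice 4, 5, 10 and 11, so that most of these promoters carried it on both diets. The shares over all promoter regions were 86.9%, 87.8%, 83.3% and 90.5%. HFD-only promoter regions had H3K4me3 in 50.0%, 50.0%, 33.3% and 58.3%. H3K4me1 covered 31.3% and 45.6% of NCD-only distal regions in mice 4 and 5, above the 22.6% and 33.6% of all distal regions, and 16.3% and 33.1% of HFD-only distal regions. In mouse 11 it covered 8.84% of NCD-only and 7.50% of HFD-only distal regions, both below the 10.7% of all distal regions, and in mouse 10, whose H3K4me1 list reached 0.0325% of all distal regions, it covered 1 of 1143 and 0 of 160. H3K27me3 was present at 7 NCD-only regions in mouse 4 (0.509%, against 0.0559% of all regions), 5 in mouse 5 (0.364%, against 0.304%) and 1 each in mice 10 and 11, and was not found at any of the 184 HFD-only regions in any of the 4 mice.

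The warm mice gave a look at diet that the choice of regions had not used. At NCD-only regions mouse 2 (warm NCD) had a peak in 65.4% and mouse 8 (warm HFD) in 38.2%. At HFD-only regions the order was turned, with 17.4% in mouse 2 and 57.1% in mouse 8. Over all 44729 regions both had peaks in similar shares, 54.5% and 54.1%. Mouse 1 (warm NCD) had peaks at 11.9% of NCD-only and 1.09% of HFD-only regions, against 28.3% of all regions. Mouse 7 (warm HFD), with 3224 peaks in all, had a peak at 5 of 1374 NCD-only and 0 of 184 HFD-only regions, the latter with an upper Wilson bound of 2.05%, against 4.87% of all regions.

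Promoter and distal members were also looked up apart. At NCD-only promoter regions mice 2 and 8 had 76.2% and 42.4%, against 80.8% and 71.7% of all promoter regions. At NCD-only distal regions they had 63.3% and 37.4%, against 42.6% and 46.2% of all distal regions. At HFD-only promoter regions they had a peak in 6 and 12 of 24, and at HFD-only distal regions 16.3% and 58.1%. For members defined from equal numbers of peaks the shares were 94.1% and 77.1% at NCD-only and 56.7% and 84.8% at HFD-only regions, against 83.6% and 83.4% of all regions so defined. For the kept members they were 86.2% and 55.0%, and 19.5% and 70.7%. By region, 466 NCD-only regions had a peak in a warm NCD mouse and no warm HFD mouse and 89 had the opposite, while 8 and 81 HFD-only regions did. A further 438 NCD-only and 24 HFD-only regions had warm peaks on both diets, and 381 and 71 had none. Of the NCD-only regions 51 (3.71%) had peaks in all 4 NCD mice and no HFD mouse, and no HFD-only region had the reverse pattern, for which the list of mouse 7 is the limit. These patterns by region were not counted over all 44729 regions. The warm lists held 16889, 28433, 3224 and 33798 peaks in mice 1, 2, 7 and 8. The pattern counts alone therefore cannot tell how far the warm mice followed diet. With 2 warm mice of each diet these shares carry no test, and mouse 8, like mouse 11, had a higher background than the NCD mice (1.92 fragments per position against 0.817 in mouse 2). The part of depth in these shares was not tested.

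**Figure D4:**
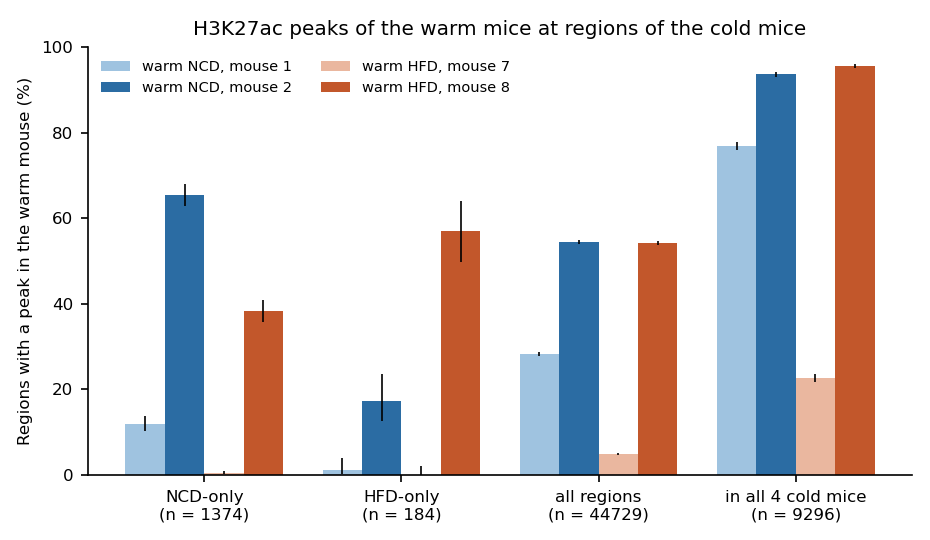
Share of regions (y axis, percent) with an H3K27ac peak in each warm mouse, for NCD-only regions, HFD-only regions, all regions and regions present in all 4 cold mice; error bars are 95% Wilson intervals over regions. Mouse 2 (dark blue) stood above mouse 8 (dark orange) at NCD-only regions, 65.4% against 38.2%, and below it at HFD-only regions, 17.4% against 57.1%.

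Lep (ENSMUSG00000059201.12), which encodes the hormone by which fat signals its stores to the brain, lies on the plus strand of chromosome 6. Its promoter region (chr6:29060229-29062824) had a fold enrichment of 4.30 in mouse 4 and 16.3 in mouse 5, at the percentiles 42.8 and 94.0, and no peak in mouse 10 or 11. The nearest peak of an HFD mouse was 15711 bp away, and H3K4me3 covered the region in mice 4 and 5 and in neither HFD mouse. Both warm NCD mice and neither warm HFD mouse had H3K27ac there. A distal NCD-only region over an exon of the gene (chr6:29073087-29073698) had 5.95 and 9.95 in mice 4 and 5, was kept with equal numbers of peaks, and had a warm peak in mouse 2 alone. The promoter region was not kept, since its peak in mouse 4 ranked too low, and 5 of the 8 regions nearest to Lep had a peak in mouse 5 alone.

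The Gm15551 locus, the long noncoding RNA gene studied in this series, had 4 NCD-only regions of the 9 nearest to it. Its promoter region (chr3:126668424-126669315) had a fold enrichment of 4.39 in mouse 4 and 11.1 in mouse 5 and H3K4me3 in the same 2 mice, and the nearest HFD peak was 23592 bp away. In the warm mice it had a peak in mouse 2 and in mouse 8, so its absence was not shared by all HFD mice. The other 3 lay 4568, 12988 and 66182 bp from the start site with percentiles between 4.77 and 38.0, and none of the 4 was kept. A region 23354 bp away was present in all 4 cold mice.

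The region over the start site of Ucp1 had percentiles of 99.7, 99.1, 99.2 and 99.5 in mice 4, 5, 10 and 11. Pparg, the master regulator of adipocyte differentiation, had 98.6, 96.7, 96.0 and 99.6 at its first promoter region. Fabp4, which encodes a fatty acid carrier of adipocytes, had folds of 48.9, 18.6, 21.7 and 39.0. Adipoq, the adiponectin gene, had a promoter region in all 4 mice with folds of 11.2, 15.3, 5.58 and 10.9, and Cidea, which encodes a lipid droplet protein, had 24.5, 12.9, 14.4 and 15.8. The thermogenic list of 26 genes had 2 NCD-only regions of 121 (1.65%, against 3.07% of all regions), and 2 HFD-only regions (1.65%, against 0.411%). The NCD-only ones were an exonic region of Ucp1 (chr8:83295166-83295589), with folds of 6.14 and 5.90 and an HFD peak 1006 bp away, and a region 5500 bp from the start site of Ebf2, a brown fat transcription factor, with an HFD peak 155 bp away. The HFD-only ones were kept. They were a region 409 bp upstream of Elovl3 (chr19:46130819-46131488), which encodes a cold-inducible fatty acid elongase, and a region 5345 bp from Slc27a2, a very long-chain acyl-CoA synthetase. The Elovl3 region had folds of 3.99 in mouse 10 and 6.37 in mouse 11 and stood at the percentiles 2.94 and 69.7, and in the warm mice both mouse 2 and mouse 8 had a peak there. A region 36 bp downstream of that start site had a peak in mouse 11 alone among the cold mice, and H3K4me3 in all 4.

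Of the 24 genes for de novo lipogenesis and triglyceride synthesis, 5 (20.8%) had an NCD-only region, against 7.46% of the 15829 genes nearest to any region. That share depends on the number of regions per gene, which was higher in the list, with 156 regions at 24 genes against 44697 at 15829. The 5 genes had 7 of the list's 156 regions (4.49%, against 3.07% of all regions). Acaca, whose product makes malonyl-CoA, had 3 of them with folds between 4.58 and 10.6, at 1028, 140 and 1084 bp from an HFD peak. Fasn, which encodes fatty acid synthase, had a region 5588 bp from its start site with folds of 4.19 and 4.17 and an HFD peak 794 bp away. Scd1, the stearoyl-CoA desaturase gene, had a region 210 bp and Pnpla3 a region 434 bp from an HFD peak. Me1, which encodes the malic enzyme that supplies NADPH, had a region 43654 bp from its start site with folds of 5.95 and 7.54, and it alone of the 7 was kept. The remaining 6 were within 1084 bp of a peak of an HFD mouse. Without mouse 11 the list had 37 NCD-only regions and without mouse 4 or 5 it had 21 or 20, against 7 with all 4 mice. A peak within 1000 bp of a start site was found for 21, 23, 11 and 22 of these 24 genes in mice 4, 5, 10 and 11. For the 26 thermogenic genes the counts were 21, 24, 20 and 25. The count also fell in mouse 10 for clock genes (14, 18, 7 and 18 of 19) and extracellular matrix genes (8, 12, 4 and 12 of 30). Lower counts in mouse 10 were also found for insulin and glucose genes (20, 25, 17 and 24 of 26) and adrenergic and cold response genes (20, 21, 18 and 24 of 24). Adipokine and white fat or obesity markers had 6, 8, 4 and 6 of 20. The count did not fall for fatty acid oxidation genes (19, 20, 19 and 20 of 20) or lipid uptake and storage genes (23 of 24 in each). The share over all genes was not counted, and the list of mouse 10 was the shortest. These counts therefore do not tell whether any list differed from other genes. An HFD-only region of this list lay 17753 bp from Lpin1, a phosphatidate phosphatase of triglyceride synthesis, with folds of 4.11 and 6.28, and it was kept.

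Of 28 NCD-only and 8 HFD-only regions at genes of any list, 3 and 6 were kept, which the construction of the kept class favours for HFD-only regions. Among genes of insulin signalling and glucose use, Igf1 had an NCD-only promoter region (chr10:87859668-87861039) with folds of 4.97 and 5.90, H3K4me3 in all 4 cold mice and warm peaks in mice 1, 2 and 8. Pfkfb3, which encodes an activator of glycolysis, had a kept HFD-only region in an intron with folds of 4.97 and 7.31 and a warm peak in mouse 8 alone. Igf1r, the receptor of the growth factor that Igf1 encodes, had a kept HFD-only region in an intron with 5.34 and 10.9 and likewise a warm peak in mouse 8 alone. Among clock genes Arntl, which encodes the activator BMAL1, had a kept HFD-only region 8909 bp from its start site with 4.73 and 8.55 and no warm peak, and Nr1d2, which encodes a repressor of the clock, had an NCD-only region with 4.45 and 6.61. Among genes of the extracellular matrix Col18a1, a collagen of basement membranes, had 2 NCD-only regions and Timp3 and Col5a1 1 each, of 104 regions in that list (3.85%, against 3.07% of all regions). The endothelial receptor gene Tie1 had an NCD-only promoter region with 4.00 and 4.17, 450 bp from an HFD peak. Fatty acid oxidation genes had 1 NCD-only region of 87, at Cpt1a, and adrenergic and cold response genes had 1 HFD-only region of 100, at Sik1. Lipid uptake and storage genes had 2 NCD-only regions of 106, at Hilpda and Plin3, which lay 246 and 27 bp from an HFD peak. The insulin and glucose list had 2 NCD-only and 2 HFD-only regions of 181 and the clock list 1 of each of 81. Brown adipocyte markers had the Ucp1, Ebf2 and Elovl3 regions given above. Of markers of other cells, nerve and Schwann cell genes had 3 NCD-only regions of 22 (13.6%, against 3.07% of all regions), namely 2 at Mbp and 1 at Snap25. Smooth muscle genes had 1 of 8 (12.5%), skeletal muscle genes 1 of 15 (6.67%) and endothelial genes 2 of 113 (1.77%) with 1 HFD-only region, while macrophage, lymphocyte and fibroblast markers had no member.

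Of the kept NCD-only promoter regions, the 7 with the highest lower percentile were at Fbxo46, which encodes a subunit of ubiquitin ligases, Fntb, a subunit of protein farnesyltransferase, Ctbs, a lysosomal chitobiase, and Slfn9, a Schlafen family gene, and at the noncoding genes Gm49694, AC087871.1 and BB123696. At Fbxo46 (chr7:19119834-19120334) the folds were 8.29 in mouse 4 and 7.55 in mouse 5, at the percentiles 77.0 and 67.9, and the nearest HFD peak was 10652 bp away. At Fntb they were 8.10 and 8.72, at Ctbs 6.47 and 8.79, and at Slfn9 9.27 and 8.28. All 4 coding promoters had H3K4me3 in mice 4, 5, 10 and 11 and a warm H3K27ac peak in mouse 2 and mouse 8, so these regions did not separate the diets in the warm. At BB123696 the folds were 6.53 and 12.4, with H3K4me3 in mice 4 and 5 only and warm peaks in mice 1, 2 and 8. Gm49694, 365 bp from a start site of Ift27, had 6.29 and 8.95 and a warm peak in mouse 2 alone, and AC087871.1 had 7.12 and 11.1, an HFD peak 149 bp away and no warm peak.

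The kept NCD-only distal regions that ranked highest reached higher percentiles. A region in an intron of Sos2, which encodes an exchange factor for Ras, had folds of 8.64 and 13.9 at the percentiles 89.2 and 87.7. It was 242 bp wide and had a warm peak in mouse 1 alone. A region 16748 bp from the start site of Gm42936 had 7.15 and 5.54 at 93.9 and 83.7, was 269 bp wide and had warm peaks in mice 1 and 8. The Col18a1 region whose sequence is shown above (chr10:77097103-77098793) had 9.27 and 12.5 at 81.9 and 84.3, H3K4me1 in mice 4 and 5 and in neither HFD mouse, an HFD peak no nearer than 19368 bp, and a warm peak in mouse 2 alone. The region nearest to Dtnbos, 25536 bp from the start site of the DNA methyltransferase gene Dnmt3a, had 8.10 and 14.3 with H3K4me1 and H3K4me3 in mice 4 and 5 and a warm peak in mouse 2 alone. Mir3080 had a region with 7.90 and 12.0 and warm peaks in mice 1 and 2 only. The remaining regions of these 7 were 32643 bp from Gm24121, with 9.27 and 11.6 and a warm peak in mouse 2 alone, and in an intron of Ccser2, with 8.68 and 12.0 and an HFD peak 1406 bp away. Of the 7, none had a warm peak in mouse 7 and 2 had a warm peak in mouse 8.

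The kept HFD-only promoter regions were led by Gm48199, a long intergenic noncoding RNA gene on chromosome 13. Its region (chr13:52178908-52181937) had folds of 11.1 in mouse 10 and 16.1 in mouse 11, at the percentiles 95.5 and 95.8, and the nearest NCD peak was 6221 bp away. No H3K4me3 or H3K4me1 peak covered it in any of the 4 cold mice, and among the warm mice only mouse 8 had H3K27ac there. Sgk2, which encodes a kinase related to the glucocorticoid-induced kinase SGK1, had 5.95 and 9.21 at the region shown above (chr2:162987485-162987984), H3K4me3 in mice 10 and 11 and in neither NCD mouse, and a warm peak in mouse 8 alone. Acot12, which encodes a cytosolic acetyl-CoA hydrolase, had 5.16 and 5.81 with H3K4me3 in all 4 cold mice and warm peaks in mice 2 and 8. Sh3tc1 had 6.32 and 7.13 with H3K4me3 in all 4 cold mice and a warm peak in mouse 2 alone. Gm44579 had 4.85 and 6.91 with H3K4me3 in mice 10 and 11 only and no warm peak. AC127342.1 had 6.32 and 6.44 and Gm26537 had 5.46 and 10.6, each with a warm peak in mouse 8 alone. Of these 7 regions 4 had a warm peak in mouse 8 and not in mouse 2.

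Among the kept HFD-only distal regions Arhgap23 had folds of 6.59 and 8.91 at the intronic region shown above (chr11:97427432-97428200), at the percentiles 79.2 and 85.4. H3K4me3 covered it in all 4 cold mice, so that mark was there on both diets. H3K4me1 covered it in mice 4 and 5 only, and the warm peak was in mouse 8 alone. The region nearest to AC165259.1 had 8.28 and 8.98 at the percentiles 87.1 and 82.7 and a warm peak in mouse 8 alone. Regions nearest to Gm29684, Gm45278 and Nabp1, the last of which encodes a single-stranded DNA-binding protein, had folds of 6.32 and 10.6, 6.81 and 11.5, and 5.58 and 7.57, again with a warm peak in mouse 8 alone. D330023K18Rik had 6.56 and 9.21 with warm peaks in mice 2 and 8, and Gm34307 had 6.56 and 9.58 with none.

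The 1374 NCD-only regions were nearest to 1181 genes, most often the following. The noncoding gene 1700019E08Rik, whose nearest coding gene was Zeb2, had 5 NCD-only of 10 regions nearest to it, between 7323 and 122224 bp away. Gm16006, an antisense gene within Zhx2, which encodes a zinc finger repressor, also had 5, of 9 regions nearest to it, and none of them was nearer than 9159 bp to an HFD peak. All 5 had a warm peak in mouse 2, 4 also in mouse 1, and 1 in mouse 8. Ank, which encodes a pyrophosphate transporter, had 4 of 16, Ccdc80, an extracellular matrix gene of adipocytes, 4 of 6, and Epb41l2, a membrane skeleton gene, 4 of 20. The same number was found at further genes that are not described, Gm15551 aside. The 4 at Ccdc80 were 13266 bp or more from an HFD peak and 3 were kept, but mouse 8 had a warm peak at all 4. Those at Epb41l2 were between 649 and 2399 bp from an HFD peak. Fhdc1, which encodes a formin of the cytoskeleton, was the only gene with at least 3 HFD-only regions, 3 of 16, between 32938 and 39639 bp from its start site, and none of the 3 was kept.

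Motif letters were counted on both strands of the windows. The AP-1 site TGANTCA was found in 7.00% of NCD-only and 5.62% of HFD-only distal windows, against 5.99% of all distal windows. The C/EBP site TTGCNNAA was found in 7.44% and 3.12%, against 7.15%, and the E-box CACGTG in 3.59% and 3.75%, against 2.69%. CCAAT, the letters of nuclear factor Y, was in 21.2% of NCD-only and 40 of 160 HFD-only windows, against 21.9%. At promoters the NCD-only shares were 2.60%, 3.46%, 4.33% and 17.3% in the same order, against 3.30%, 5.51%, 3.14% and 15.5% of all promoter windows, and the 24 HFD-only promoter windows held 1 match to AP-1, 2 to CCAAT and none to the other pair. For base composition, NCD-only promoter windows had a median GC content of 53.2% and 6 CpG, HFD-only ones 55.0% and 2 CpG, and all promoter windows 58.2% and 10 CpG. Distal windows had medians of 49.3%, 48.3% and 48.3% GC.

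Regions present in all 4 mice allowed a test of the height of the peaks. They needed a peak in mouse 10, whose lowest called enrichment over background was 8.91. The 8042 regions in mice 4, 5 and 11 but not 10 were thus left out. Regions too low to be called in that HFD mouse could not enter the comparison. The differences and list medians below hold only for regions called in it. Fold enrichments of the 9296 shared regions were put on the log2 scale without a pseudocount, quantile-normalised, and compared by diet with limma, with Benjamini-Hochberg adjustment over all of them. No region passed an adjusted p of 0.05 (0% higher and 0% lower in HFD). At an unadjusted p below 0.05, 143 were higher (1.54%) and 111 lower in HFD (1.19%), and with median centring in place of quantile normalisation 178 were higher and 55 lower. The median difference over all shared regions was −0.01. It was 0.03 for the 4320 promoter and −0.05 for the 4976 distal regions.

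The shared regions with the lowest p are given by their values. At the promoter of Lpl, which encodes the lipoprotein lipase that takes fatty acids from circulating triglyceride, the fold was 8.49 and 13.2 in the NCD mice 4 and 5, and 22.6 and 38.2 in the HFD mice 10 and 11. The HFD mice were both above the NCD mice, with a log2 difference of 1.85 ± 0.40 (SE, limma, adjusted p = 1.00). Samm50, which encodes a mitochondrial outer membrane protein, had folds of 3.65, 10.5, 13.5 and 25.3 at its promoter, a difference of 1.81 ± 0.44. Npr3, the clearance receptor of natriuretic peptides, had 3.98, 12.2, 15.3 and 27.6 and a difference of 1.83 ± 0.45, and Nus1, needed for dolichol synthesis, and Grn, the progranulin gene, had differences of 1.62 ± 0.41 and 1.61 ± 0.41. In the other direction the region over the start site of Gm16046, a noncoding gene, had folds of 21.4 and 19.3 in the NCD mice and 3.56 and 7.45 in the HFD mice, a difference of −1.87 ± 0.45. Regions nearest to Gm44413, Gm34322, Gm15764 and Nmt1, which encodes N-myristoyltransferase, had differences of −1.65 ± 0.42, −1.55 ± 0.40, −1.74 ± 0.48 and −1.38 ± 0.41. For each of these 10 regions the HFD and NCD mice did not overlap, as in 14.1% of shared regions in the higher and 15.8% in the lower direction, and none passed the adjustment.

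Of the 43 shared regions at 22 thermogenic genes 32 had a log2 difference above 0 (median log2 difference 0.36, against −0.01 over all shared regions), and in 15 of them (34.9%, against 14.1%) both HFD mice were above both NCD mice, with 3 in reverse (6.98%, against 15.8%). The list's median stood 0.25 and 0.18 above that of all shared regions in mice 4 and 5, and 0.51 and 0.73 above it in mice 10 and 11. Its difference was between 0.12 and 0.49 under the other normalisations of fold enrichment and with each mouse left out. With normal scores of the ranks of −log10 p, which are not on the log2 scale, it was 0.51. Over all shared regions the median was between −0.08 and 0.06 under these settings. No region of the list passed the adjustment. The region over the start site of Ucp1 went the other way, with folds of 33.5, 26.3, 15.7 and 19.6 and a log2 difference of −0.28 ± 0.42. The first promoter region of Pparg had a difference of 0.82 ± 0.42, Fabp4 0.48 ± 0.51, Cidea 0.24 ± 0.49 and Adipoq −0.39 ± 0.40.

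The median difference was 0.21 for 43 regions of adrenergic and cold response genes, 0.22 for 30 of fatty acid oxidation genes and 0.22 for 39 of lipid uptake, storage and lipolysis genes. Of these lists the first 2 kept a positive median under every normalisation and with each mouse left out, and the third fell to −0.23 without mouse 5. Brown adipocyte markers, 9 of which are also on the thermogenic list, had 0.22 over 20 regions and −0.19 without mouse 5. Lipogenic genes had 0.04 over 36 regions, and insulin and glucose genes −0.06 over 48. Clock genes had −0.08 over 20 regions and 0.11 without mouse 11, with 0.04 under median centring. Extracellular matrix genes had −0.14 over 21 regions and 0.13 without mouse 4, with 0.00 under median centring. Endothelial markers had 0.14 over 26 regions, with list medians of −0.13, −0.60, 0.04 and −0.37 relative to all shared regions in mice 4, 5, 10 and 11, and their difference was −0.22 without mouse 5. Nerve and Schwann cell markers had −0.27 over 7 regions, 4 of which were lower in both HFD mice than in both NCD mice, and between −0.41 and −0.16 under the other normalisations and with each mouse left out. Macrophage markers had −0.45, fibroblast markers −0.31 and skeletal muscle markers 0.51, over 2 regions each, and smooth muscle markers 0.03 over 4 regions with −0.41 without mouse 5 and −0.18 without mouse 11. The part of these cell types in the values above was not tested. Of 329 shared regions at genes of any list, 15 were higher in HFD at an unadjusted limma p below 0.05 (4.56%, against 1.54% of all shared regions). Only 1 was lower, against 1.19% of all shared regions, and none passed the adjustment. Chosen after their values were seen, examples are the promoters of Sik1 and Gadd45g, both induced through cyclic AMP, with differences of 1.56 ± 0.54 and 1.39 ± 0.40, and that of Adrb3, the adipocyte adrenergic receptor gene, with 1.07 ± 0.48.

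**Figure D5:**
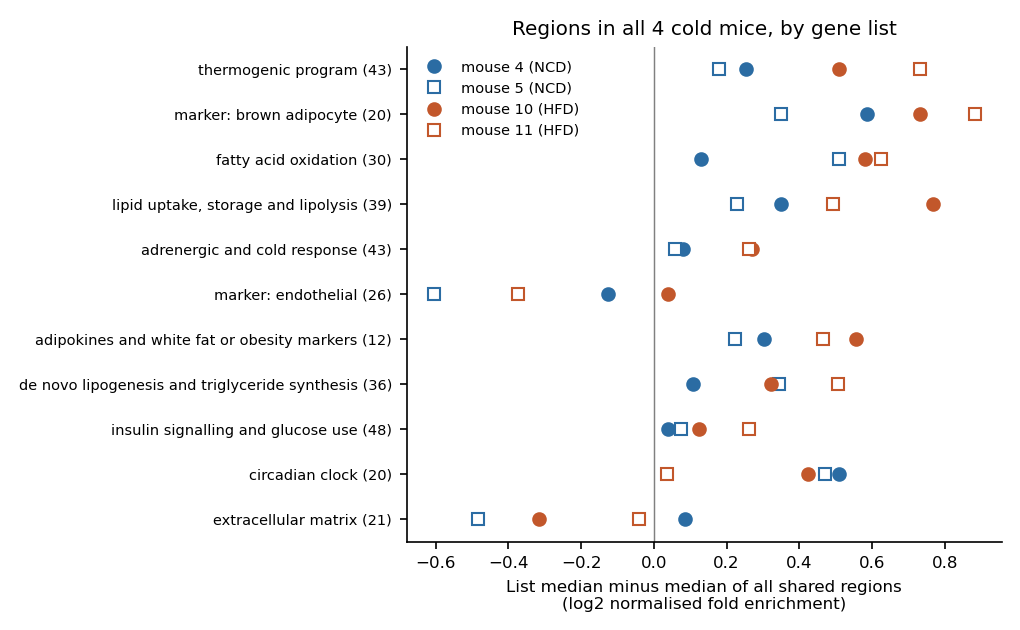
Median log2 normalised fold enrichment of the shared regions of each gene list minus the median of all 9296 shared regions (x axis), for each cold mouse (blue NCD, orange HFD), with the number of regions in parentheses; lists with at least 10 regions are shown. For the thermogenic list mice 4 and 5 stood at 0.25 and 0.18 and mice 10 and 11 at 0.51 and 0.73, and for the extracellular matrix and endothelial lists the mice of the 2 diets overlapped.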

How the data were processed

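H3K27ac peak lists of 4 cold mice were compared by diet, with 4 warm mice and 3 other marks looked up at the resulting regions. According to the methods of the study, the authors trimmed reads with cutadapt, aligned them to GRCm38 with Bowtie2 and called peaks with MACS2 against the matching input; versions and the calling threshold were not given in the sources used here. For every peak the authors deposited the fold of pileup over local background, a ratio with the caller's pseudocount, and −log10 p and −log10 q values. The local background is not in the lists, and total read depth is unknown.

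Regions were joined at 1 bp of overlap and annotated to the nearest of 59486 GENCODE M21 basic start sites (pseudogenes left out). No region ended beyond any of 21 reference chromosomes. A region took its highest peak by −log10 p in each list. limma 3.58.1 (R 4.3.3) was run on log2 fold enrichment with diet as its only term, after checks on simulated data; the rest used Python 3.11.15, pandas 2.3.3 and SciPy 1.17.1. Promoter windows, protein-coding start sites, a −log10 q of 5, summits within 500 bp and leaving out mice were tried as alternatives. Sequences are from the RefSeq copy of GRCm38.p6. Inputs were not analysed here.

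The rule for named regions took, per class and place, the 7 kept regions with the highest lower percentile; the 5 shared regions with the lowest p in each direction; up to 5 genes per class with at least 3 members; genes of the 17 lists with a member at a promoter; and Ucp1, Pparg, Adipoq, Fabp4, Cidea, Lep and Gm15551. The members and lists were chosen with earlier results of these data known.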

Additional observations from a re-analysis of the deposited data

Results flagged for a closer look

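An HFD-only region in an intron of Grik1, which encodes a glutamate receptor subunit, at chr16:88104131-88104727, 47955 bp from the start site, had the opposite diet pattern in the warm mice. In the cold it had folds of 4.24 in mouse 10 and 6.91 in mouse 11 and its lower percentile was 21, with no peak in mice 4 and 5. In the warm both NCD mice had a peak there and neither HFD mouse had. What drew attention to it was this opposite order of every warm and every cold mouse, and the difference was not tested, and it was 1 region of 1558.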

How the results depend on the processing

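No paired analysis was possible because the NCD and HFD mice share no mouse number. With equal numbers of top peaks there were 848 NCD-only and 494 HFD-only regions, with a −log10 q of at least 5 there were 900, 38 and 3937 in all 4 mice, and with summits within 500 bp 2143 and 620. Leaving out 1 mouse gave 1405 to 9936 NCD-only, 318 to 10576 HFD-only and 9714 to 17339 shared regions: without mouse 10 the HFD-only count was 10576 and the shared count 17339, without mouse 11 the NCD-only count was 9936, and without mouse 4 or 5 it was 4853 or 5078. The promoter share of NCD-only regions was 26.4% with equal numbers, 19.1% at the stricter q, 23.0% within 2500 bp, 14.2% with protein-coding start sites and 12.6% to 34.2% without 1 mouse. That of HFD-only regions was 20.4%, 21.1% and 19.0% under the first 3 of these and 10.1% to 41.3% without 1 mouse. With equal numbers, warm peaks covered 53.9%, 94.1% and 77.1% of NCD-only regions in mice 1, 2 and 8 and 16.6%, 56.7% and 84.8% of HFD-only regions, against 11.9%, 65.4% and 38.2% and 1.09%, 17.4% and 57.1% with all peaks. NCD-only regions of the lipogenic list, an alternative added after seeing the data, numbered 3 at the stricter q and 7 to 37 without 1 mouse. The within-diet minus between-diet Jaccard index was −0.03 with all peaks and with equal numbers and −0.04 at the stricter q. The number of shared regions past the adjustment was 0 in limma under all 8 alternatives, including 1 added later that removes the caller's pseudocount; at an unadjusted p below 0.05 they held 76 to 833 regions. When 1 mouse was left out, the lone mouse of that diet was assumed to vary like the other diet. The fewest peaks, in mouse 10, limit what could be seen on HFD, and the causes of these shifts were not tested.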
